A study of Mus musculus with 4 samples.

Results

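Mertk, Axl and Stab1 encode receptors with which macrophages recognise and engulf dying cells. The genes were taken by symbol from a list of 4 (Mertk, Axl, Gas6 and Stab1), and 3 of these were read as rows of a matrix of 11820 genes. Gas6 was not analysed here. The cells were 5420 monocytes and macrophages of the colonic lamina propria from 4 male C57/Bl6N mice aged 6 to 7 weeks at the start of feeding. 2 mice (replicates 9 and 11) had eaten normal chow and 2 mice (replicates 1 and 3) a coconut-based high-fat diet (HFD) with 60% fat, each for 1 week, and no mouse carried an engineered allele by its labels. Cells were sorted as live CD45+ Lin- CD11b+ CD24- cells positive for Ly6c or Cd64, and each mouse filled 1 droplet well. Each captured RNA molecule was counted once as a unique molecular identifier (UMI).

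Removal of apoptotic cells, or efferocytosis, starts when a phagocyte binds phosphatidylserine, a lipid that dying cells expose on their surface. Mertk and Axl are receptor tyrosine kinases of the TAM family. They do not touch the lipid themselves but bind it through bridging proteins, Gas6 for both and Protein S (Pros1) for Mertk, and they also dampen inflammatory signalling inside the cell. Stab1 (stabilin-1) is a large scavenger receptor that binds phosphatidylserine directly and is typical of tissue-resident macrophages. In the colon, blood monocytes that carry Ly6C enter the lamina propria, gain MHC class II and then become macrophages that make the complement protein C1q.

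On the GRCm38 build, Mertk (ENSMUSG00000014361) spans chr2:128698956-128802894 on the plus strand, Axl (ENSMUSG00000002602) spans chr7:25757273-25788705 on the minus strand and Stab1 (ENSMUSG00000042286) spans chr14:31139013-31168641 on the minus strand. The 250 bases before each RefSeq transcription start (GRCm38.p6) are shown to set beside the levels of each gene by stage and diet. They lie at chr2:128698665-128698914, chr7:25788734-25788983 and chr14:31168642-31168891, and are written 5′ to 3′ on the strand of the gene. Capitals mark matches, on either strand, to any of 6 motifs: GAGGAA (of the type bound by PU.1), AGGTCA (nuclear receptor half-site), TGCTGA (MAF half-site), GAAANNGAA (interferon-stimulated element), TTCNNNGAA (gamma-activated site) and GGGCGG (GC box).
Mertk: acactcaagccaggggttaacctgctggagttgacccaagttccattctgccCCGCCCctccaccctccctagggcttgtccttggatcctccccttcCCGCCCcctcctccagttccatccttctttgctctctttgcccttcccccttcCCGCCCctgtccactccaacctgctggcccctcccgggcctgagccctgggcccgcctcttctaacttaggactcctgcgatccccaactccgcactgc
Axl: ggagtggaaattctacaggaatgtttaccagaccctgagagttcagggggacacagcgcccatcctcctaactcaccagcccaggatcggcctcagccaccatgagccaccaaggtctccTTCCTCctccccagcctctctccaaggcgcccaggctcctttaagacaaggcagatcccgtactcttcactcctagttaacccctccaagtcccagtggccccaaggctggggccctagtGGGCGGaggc
Stab1: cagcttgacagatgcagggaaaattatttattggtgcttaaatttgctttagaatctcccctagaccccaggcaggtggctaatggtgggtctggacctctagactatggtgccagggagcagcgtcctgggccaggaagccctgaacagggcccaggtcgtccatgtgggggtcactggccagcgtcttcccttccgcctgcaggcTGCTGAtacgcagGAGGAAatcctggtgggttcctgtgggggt
The Mertk window held 3 GC boxes, a motif found in 32.7% of all 32851 promoter windows of this length, and no match to the other motifs. The Axl window held 1 GC box and 1 GAGGAA, which 23.3% of windows hold. The Stab1 window held 1 GAGGAA and 1 TGCTGA, which 16.1% of windows hold, and no GC box. AGGTCA (14.0% of windows), GAAANNGAA (7.13%) and TTCNNNGAA (7.02%) were in none of the 3. A match is a run of letters and says nothing of binding in these cells.

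Each cell was placed on the path from monocyte to macrophage by the share of its UMIs, per 10000, from genes that are no members: Ly6c2, MHC II (H2-Aa, H2-Ab1 and H2-Eb1 summed) and C1q (C1qa, C1qb and C1qc summed). This gave 628 Ly6C+ MHC II-low cells, 425 Ly6C+ MHC II-high cells, 599 Ly6C- MHC II-high C1q-low cells, 1021 C1q-intermediate cells (C1q from 50 to 150) and 2492 C1q-high cells (C1q of 150 or more), with 255 cells outside these stages. The stages are ranges and not cell types, and 925 cells (17.1%) lay within 20% of the upper C1q cut. C1q-low cells also held dendritic cell markers: 5 of these summed to 440 and 454 CPM on chow against 410 and 422 CPM on HFD, mostly Cd209a (385 and 395 against 348 and 373 CPM), whereas the 5 summed to 88.1 and 87.3 against 37.3 and 27.0 CPM in C1q-intermediate cells, where Stab1 too was higher on chow, and to 22.1 and 30.2 against 36.7 and 44.1 CPM in C1q-high cells. Their part in the diet differences was not tested. C1q-high cells made up 63.9% and 72.6% of the cells of chow replicates 9 and 11, against 22.5% and 15.8% in HFD replicates 1 and 3. The libraries held 904, 2002, 966 and 1548 cells with 3832283, 7947893, 3824228 and 5584175 UMIs in the same order, and 23 barcodes occurred in more than 1 library, none with identical counts. Levels are given as UMIs per 1000000 UMIs (CPM) of the summed cells, and tests are edgeR quasi-likelihood tests on sums per mouse at an FDR of 1%. The labels tie each library to a different mouse, and with 2 mice per diet no exact two-sided test can give a p under 0.33.

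All 3 genes were higher in C1q-high cells than in Ly6C+ MHC II-low cells in 4 of 4 mice. The largest fitted step of Axl came with the gain of MHC II, and it rose again into C1q-intermediate cells. Mertk was nearly undetected in Ly6C+ MHC II-low cells. In C1q-low cells Stab1 was higher in both chow mice than in both HFD mice.

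**Figure D1:**
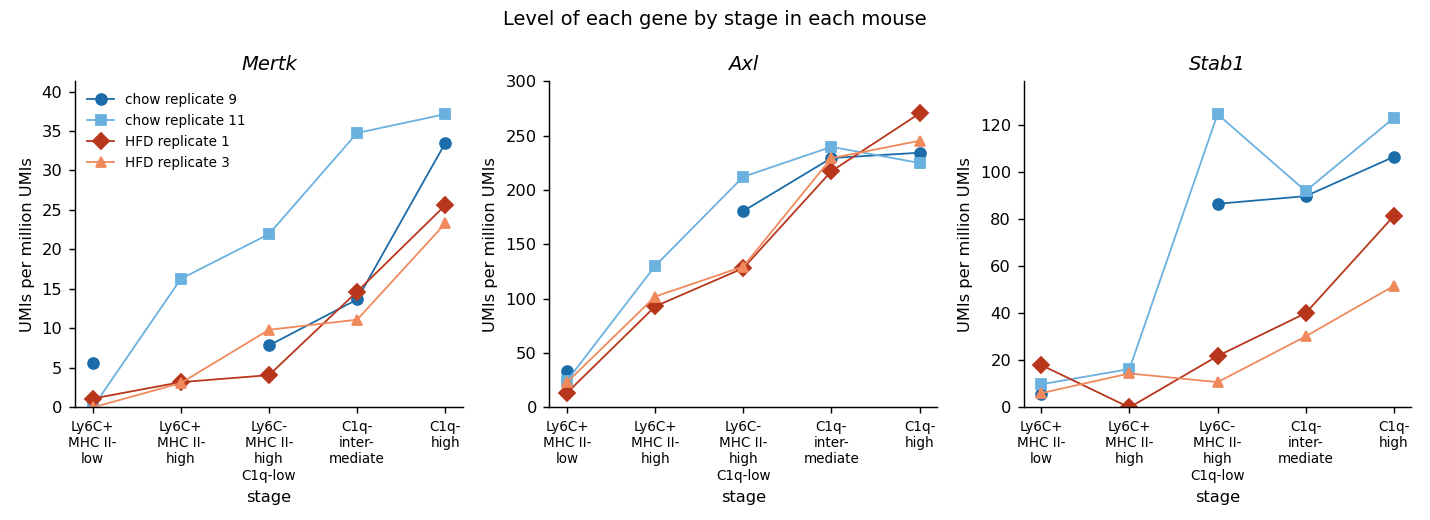
CPM of Mertk, Axl and Stab1 (vertical axes, linear) in the 5 stages (horizontal axis), 1 point and line per mouse, for sums of at least 20 cells, so that the 2 Ly6C+ MHC II-high cells of chow replicate 9 are not drawn. All 4 mice have between 217 and 270 CPM of Axl in the C1q-intermediate and C1q-high stages. In the first the diets meet at 229 CPM (chow replicate 9 and HFD replicate 3), and in the second both HFD mice lie above both chow mice. The Stab1 lines of chow and HFD mice are apart from the C1q-low stage on.

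In Ly6C+ MHC II-low cells, the Axl level was 33.9 and 24.6 CPM in chow replicates 9 and 11, and 13.5 and 23.1 CPM in HFD replicates 1 and 3. In Ly6C+ MHC II-high cells it was 130 CPM in chow replicate 11 and 93.0 and 102 CPM in the HFD mice, chow replicate 9 having only 2 such cells. It went on to 181, 212, 128 and 130 CPM in Ly6C- MHC II-high C1q-low cells (replicates chow 9, chow 11, HFD 1 and HFD 3). C1q-intermediate cells had 229, 240, 217 and 229 CPM, and C1q-high cells had 234, 225, 270 and 245 CPM. The lowest C1q-high mouse thus lay above the highest Ly6C+ MHC II-low mouse by a wide margin, while the last 2 stages overlapped.

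The gain of Axl with MHC II was 2.31 on the log2 scale (SE 0.26, edgeR adjusted p = 2.44e-07, higher in 3 of 3 mice), a comparison in which 1.44% of 8816 genes passed. From Ly6C+ MHC II-high to C1q-low cells it changed by 0.50 (SE 0.21, edgeR adjusted p = 0.547; 0.136% of genes passed). From C1q-low to C1q-intermediate cells it rose by a further 0.73 (SE 0.16, edgeR adjusted p = 0.0081, higher in 4 of 4 mice; 1.25% of genes passed), a call that was lost without any 1 of the 4 mice (0.64 to 0.82, edgeR adjusted p from 0.0138 to 0.198), with halved cuts (0.91, edgeR adjusted p = 0.0143), with doubled cuts (0.42, edgeR adjusted p = 0.185) and with RLE size factors (0.73, edgeR adjusted p = 0.0101). By Ward clusters it was 1.15 (edgeR adjusted p = 5.69e-05). C1q-high cells differed from C1q-intermediate ones by 0.21 (95% interval -0.08 to 0.50, edgeR adjusted p = 0.688; 0.964% of genes passed). Over the whole path the rise of Axl was 3.74 (SE 0.21, edgeR adjusted p = 5.47e-16), where 16.6% of genes passed.

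Mertk was detected in Ly6C+ MHC II-low cells by only 2 UMIs in 628 cells, 1 in chow replicate 9 and 1 in HFD replicate 1. The 59 such cells of chow replicate 11 had none, which allows a share of up to 5.08% of cells with a UMI, and the 281 of HFD replicate 3 had none, which allows up to 1.07%. In C1q-low cells the Mertk level was 7.85 and 22.0 CPM in the chow mice and 4.09 and 9.83 CPM in the HFD mice, resting on 1, 3, 3 and 11 UMIs. C1q-intermediate cells had 13.7, 34.8, 14.7 and 11.1 CPM. C1q-high cells had 33.5, 37.1, 25.6 and 23.3 CPM, the highest stage in every mouse.

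Pooled over the mice, Mertk was 35.4 times as high in C1q-high as in Ly6C+ MHC II-low cells, with an exact 95% interval of 9.73 to 293 that covers counting error only. This pool mixes the diets unevenly, since chow mice gave 81.1% of the UMIs of C1q-high cells and 18.2% of those of Ly6C+ MHC II-low cells. Within chow the ratio was 13.7 (2.44 to 543) and within HFD 41.6 (7.13 to 1670), each against 1 UMI. The fitted rise was 4.75 on the log2 scale (SE 0.62, edgeR adjusted p = 1.94e-07), and it rests on 2 UMIs in Ly6C+ MHC II-low cells. Its size under other prior counts was not tested. No single step passed the test for Mertk: the largest fitted step was that from Ly6C+ MHC II-low to MHC II-high cells (1.97, SE 1.11, edgeR adjusted p = 0.492), and the last, from C1q-intermediate to C1q-high, was 0.83 (SE 0.29, edgeR adjusted p = 0.181, higher in 4 of 4 mice).

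Stab1 was low in both Ly6C+ stages, with 5.65, 9.84, 18.0 and 6.08 CPM in MHC II-low cells and 16.3, 0 and 14.4 CPM in the MHC II-high cells of chow replicate 11, HFD replicate 1 and HFD replicate 3. None of the 83 MHC II-high cells of HFD replicate 1 had a Stab1 UMI, which allows a share of up to 3.61%. In C1q-low cells the diets parted, with 86.4 and 124 CPM on chow against 21.8 and 10.7 CPM on HFD. C1q-intermediate cells had 89.6 and 91.8 CPM on chow against 40.0 and 30.2 CPM on HFD. In the chow mice Stab1 was thus about as high in C1q-low as in C1q-intermediate cells, and in the HFD mice it was lower there.

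From Ly6C+ MHC II-low to C1q-high cells, Stab1 rose by 2.87 on the log2 scale (SE 0.37, edgeR adjusted p = 1.98e-07). Pooled within chow it was 14.9 times as high (exact 95% interval of counting error 5.10 to 72.6, against 3 UMIs) and within HFD 5.24 times (3.29 to 8.74, against 21 UMIs), while Axl was 7.88 and 14.1 times as high, against 11 and 31 UMIs. The test of whether the diets differ in this rise did not pass for either gene (edgeR adjusted p = 0.535 for Stab1 and 0.702 for Axl). Its single steps were 0.31, 1.13, 0.73 and 0.69, and none passed the test (edgeR adjusted p from 0.187 to 0.919). The fit shares 1 course over both diets. Without HFD replicate 3 the first 3 steps were -2.29, 4.02 and 0.42. The step from C1q-low to C1q-intermediate cells passed with doubled cuts (1.34, edgeR adjusted p = 0.000144), and the last passed with Ward clusters of the whole transcriptome in place of the cuts (1.72, edgeR adjusted p = 1.04e-06).

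Within finer ranges of C1q, without a test, the Stab1 level was highest at the highest C1q in 3 of 4 mice, whereas that of Axl showed no such order. At 150 to 200 C1q UMIs per 10000, Stab1 was at 91.9 and 93.8 CPM on chow against 58.5 and 38.1 CPM on HFD. At 250 and above it was at 172 and 187 CPM on chow against 146 and 56.9 CPM on HFD, the last 2 values from 34 and 15 UMIs. At 200 to 250 the Axl level was 229, 229, 247 and 237 CPM. In each of the 5 C1q ranges from 50 upward, and at 10 to 50 (23.3 and 12.5 against 74.4 and 62.0 CPM), both HFD mice had less Stab1 than both chow mice. Under 10 the diets overlapped, at 21.8 and 5.92 CPM on chow against 15.3 and 10.0 CPM on HFD, the chow values from 7 UMIs and 1 UMI.

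**Figure D2:**
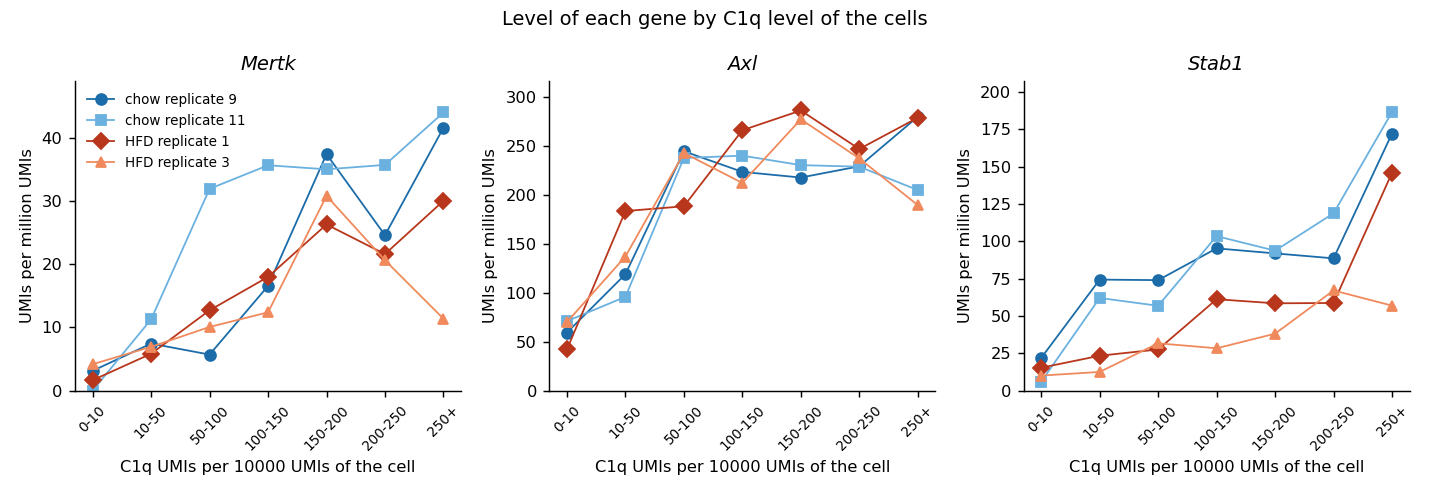
CPM of each gene (vertical axes, linear) against the C1q UMIs per 10000 of the cells (horizontal axis, 7 ranges of unequal width), 1 line per mouse. Stab1 reaches 187 CPM in chow replicate 11 and 172 CPM in chow replicate 9 at the highest C1q, and both HFD lines stay below both chow lines from 50 upward.

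The share of cells with a UMI depends on depth, so it is given as counted and after thinning to 2000 UMIs, which leaves out shallower cells. Thinned shares of C1q-high cells rest on 545 of 578, 1267 of 1453, 188 of 217 and 220 of 244 cells. In C1q-high cells, at median depths of 4422, 4155, 3810 and 4720 UMIs, Mertk was seen in 11.8% (exact 95% interval 9.25 to 14.7), 11.01% (9.45 to 12.7), 9.22% (5.72 to 13.9) and 8.61% (5.41 to 12.9) of cells in replicates chow 9, chow 11, HFD 1 and HFD 3. After thinning these shares were 5.33, 6.05, 4.80 and 4.25%. In Ly6C+ MHC II-low cells, at median depths from 2909 to 4004 UMIs, the share of Mertk-positive cells ranged from 0 to 1.75%.

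Axl had a UMI in 52.1, 50.7, 51.6 and 55.7% of C1q-high cells, and in 32.4, 32.8, 35.8 and 34.5% after thinning. In Ly6C+ MHC II-low cells 4.33 to 8.77% of cells were positive for Axl. Stab1 had a UMI in 28.2% (24.6 to 32.1) and 29.4% (27.1 to 31.8) of C1q-high cells on chow, and in 23.0% (17.6 to 29.2) and 19.7% (14.9 to 25.2) on HFD. After thinning these were 16.2 and 17.4% on chow and 14.2 and 9.55% on HFD. The Stab1 shares of the diets did not overlap either way (exact permutation p = 0.33, the smallest possible for 2 against 2 mice).

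Most C1q-high cells showed 1 member or none. No member was seen in 32.5, 32.1, 34.1 and 33.2% of them, exactly 1 in 45.2, 47.2, 50.2 and 50.4%, and all 3 in 2.25, 2.55, 2.30 and 0.82%. Cells with an Axl UMI were deeper (median 4863 against 4005 UMIs in chow replicate 9), so a cell without a UMI is not a cell without the receptor.

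Summed over all cells of a mouse, every member fell on HFD. Stab1 was at 95.2 and 113 CPM on chow against 36.4 and 23.8 CPM on HFD. Mertk was at 26.6 and 34.9 CPM on chow against 10.2 and 10.2 CPM on HFD. Axl was at 215 and 218 CPM on chow against 143 and 152 CPM on HFD, so that none of the 3 overlapped between the diets. The share of all genes without such an overlap was not counted. Over all cells, 43.2% of 4955 genes had an unadjusted p under 0.05 by the edgeR test for diet, so differences between the diets were common.

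Stab1 fell by 2.03 on the log2 scale (SE 0.23, edgeR adjusted p = 0.00144), Mertk by 1.83 (SE 0.22, edgeR adjusted p = 0.00186) and Axl by 0.77 (SE 0.11, edgeR adjusted p = 0.00344). In this comparison 16.2% of 4955 genes passed. The calls of Mertk and Axl were lost without HFD replicate 1 (edgeR adjusted p = 0.0179 and 0.0411) and without HFD replicate 3 (0.0287 and 0.041), and that of Stab1 without HFD replicate 3 (0.0134). In sums over all cells, fewer cells that express a gene and less RNA of it per cell cannot be told apart.

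With the share of each stage held equal, the diet difference of each gene was smaller. When each mouse's own levels per stage were weighted by the mean stage shares of the chow mice, the Axl level was 220 and 214 CPM on chow against 242 and 225 CPM on HFD, a log2 ratio of 0.11 against -0.55 with each mouse's own shares. Mertk was then at 27.7 and 34.0 CPM on chow against 21.7 and 19.6 CPM on HFD, a log2 ratio of -0.58 against -1.59 with each mouse's own shares. Stab1 was at 97.2 and 111 CPM on chow against 68.9 and 44.3 CPM on HFD, a log2 ratio of -0.88 against -1.79. With the shares of the HFD mice the log2 ratios were -0.27 for Axl, -0.78 for Mertk and -1.24 for Stab1. Those of chow replicate 9 take its Ly6C+ MHC II-high level from 2 cells (3 Axl UMIs, 362 CPM, and none of Mertk or Stab1), and without this mouse the ratios were -0.17, -1.11 and -1.38. Without chow replicate 11 that of Mertk was -0.35. With the shares of the chow mice, leaving out 1 mouse gave 0.05 to 0.16 for Axl, -0.70 to -0.42 for Mertk and -1.23 to -0.59 for Stab1, the lowest Stab1 value being without HFD replicate 1 and the highest without HFD replicate 3. These weighted levels were not tested, and they depend on where the stages are cut.

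**Figure D3:**
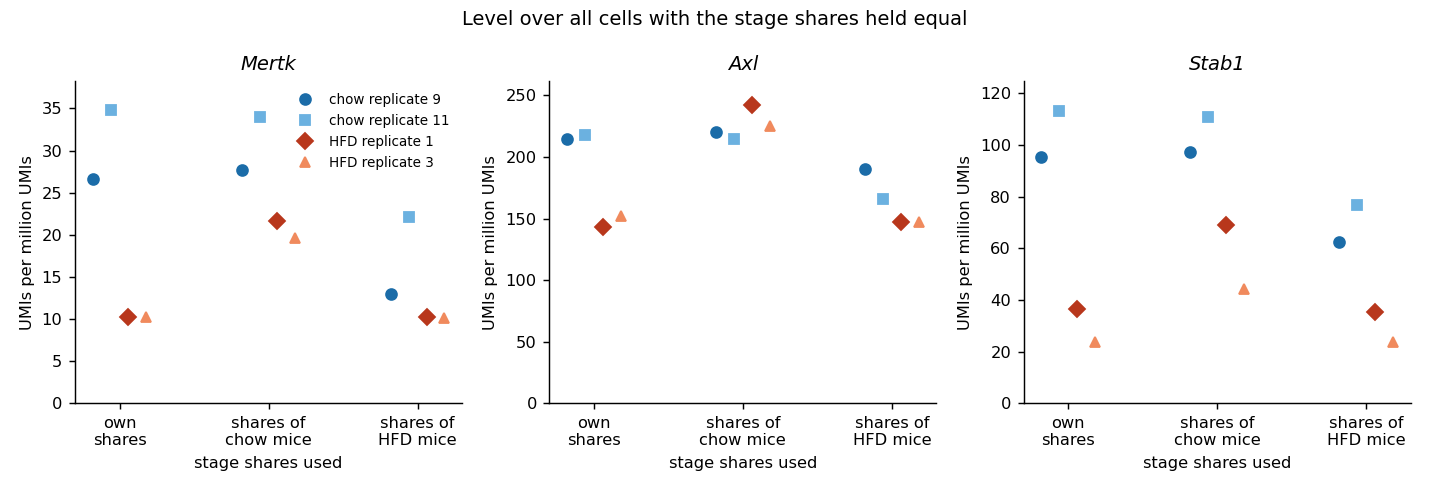
CPM over all cells (vertical axes, linear) for each mouse with its own stage shares, with the mean shares of the chow mice and with those of the HFD mice (horizontal axis). With chow shares the HFD mice lie at 242 and 225 CPM for Axl, above both chow mice, and at 68.9 and 44.3 CPM for Stab1, below both.

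Within stages, Stab1 fell on HFD in 2 of the 3 stages in which it was tested, whereas Axl did not pass in any of 4 and Mertk in neither of 2. In C1q-low cells, Stab1 fell by 2.88 on the log2 scale (SE 0.50, edgeR adjusted p = 0.00486), where 2.04% of 4795 genes passed. In C1q-intermediate cells it fell by 1.56 (SE 0.25, edgeR adjusted p = 0.00107), where 11.2% of 4833 genes passed. The median C1q within both stages was also lower on HFD, at 5.75 and 6.19 UMIs per 10000 against 10.2 and 20.3 on chow in C1q-low cells, and at 89.7 and 91.9 against 118 and 123 in C1q-intermediate cells. In C1q-high cells it was at 106 and 123 CPM on chow against 81.2 and 51.6 CPM on HFD, and the difference of -0.89 (SE 0.24, 95% interval -1.42 to -0.36) did not pass (edgeR adjusted p = 0.05), where 1.67% of 5159 genes did. Both HFD mice were below both chow mice in all 3 stages.

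The calls of Stab1 in C1q-low and C1q-intermediate cells were lost without HFD replicate 3 (edgeR adjusted p = 0.0373 and 0.0193) and when Ward clusters replaced the cuts (-1.34, edgeR adjusted p = 0.288, and -0.57, edgeR adjusted p = 0.551). That in C1q-intermediate cells was also lost with halved cuts (-2.54, edgeR adjusted p = 0.0113), where Stab1 in C1q-low cells missed the filter of a UMI in 5% of cells and has no value. With doubled cuts the C1q-low difference was -1.67 (edgeR adjusted p = 0.00964). These clusters are not the same cells: the one taken as C1q-low held 401 C1q-low, 253 Ly6C+ MHC II-high and 227 C1q-intermediate cells, and the one taken as C1q-intermediate held 304 C1q-intermediate and 293 C1q-high cells. In C1q-high cells the difference was -0.98 without chow replicate 9 (edgeR adjusted p = 0.00269) and -1.14 with halved cuts (edgeR adjusted p = 0.00669), both past the threshold, but -0.56 without HFD replicate 3 (edgeR adjusted p = 0.354) and -0.14 by Ward clusters (edgeR adjusted p = 0.872). The C1q-low result rests on 46 and 57 cells with 11 and 17 Stab1 UMIs on chow, against 181 and 315 cells with 16 and 12 UMIs on HFD.

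Mertk did not pass within any stage in which it was tested. In C1q-intermediate cells its difference was -1.17 (95% interval -2.25 to -0.09, edgeR adjusted p = 0.123), with chow replicate 9 among the HFD mice. In C1q-high cells it was -0.63 (95% interval -1.20 to -0.06, edgeR adjusted p = 0.173), with both HFD mice below both chow mice. By Ward clusters these differences were 0.35, the other way, and -0.16 (edgeR adjusted p = 0.846 and 0.9), and with doubled cuts that in C1q-intermediate cells was -0.77 (edgeR adjusted p = 0.0742). In the 2 less mature stages tested for diet Mertk did not reach the filter of a UMI in 5% of cells.

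Axl differed by -0.84 in Ly6C+ MHC II-low cells (95% interval -2.08 to 0.41, edgeR adjusted p = 0.606), where 0.692% of 4477 genes passed. That value was -0.48 without HFD replicate 1, -1.27 without HFD replicate 3 and -0.054 by Ward clusters. It differed by -0.73 in C1q-low cells (-1.29 to -0.17, edgeR adjusted p = 0.143) and by -0.23 in C1q-intermediate cells (-0.60 to 0.14, edgeR adjusted p = 0.383). By Ward clusters these were -0.47 and -0.48 (edgeR adjusted p = 0.539 and 0.178), and with doubled cuts the second was 0.0079 (edgeR adjusted p = 0.981). In C1q-high cells the difference was 0.08 (-0.28 to 0.44, edgeR adjusted p = 0.817), against -0.77 (-1.04 to -0.50) over all cells, of which these are a part. These 2 values were not tested against each other.

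**Figure D4:**
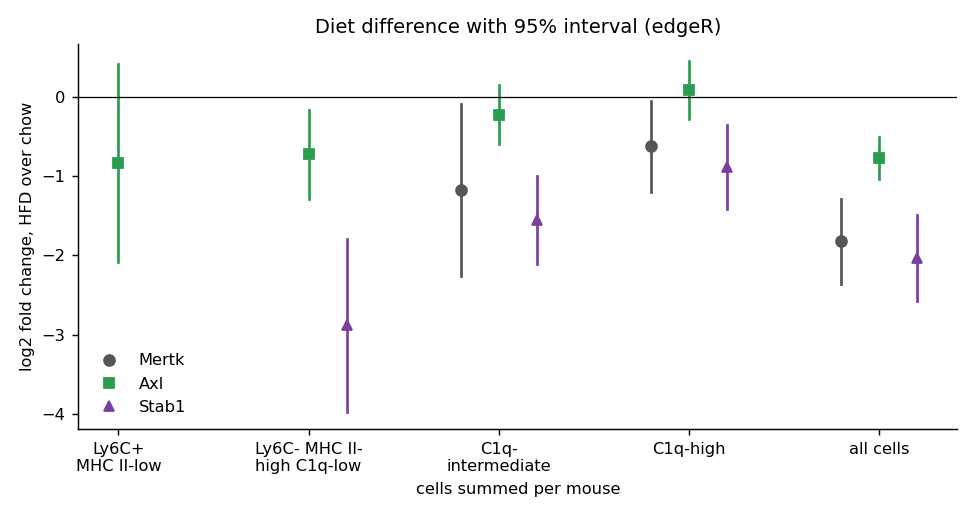
Log2 fold change of HFD over chow (vertical axis) with 95% intervals from edgeR for each gene, in each stage that could be tested and over all cells (horizontal axis). The Stab1 interval lies below 0 in each of its 4 comparisons, whereas the Axl interval spans 0 in Ly6C+ MHC II-low, C1q-intermediate and C1q-high cells.

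Whether the diet difference itself changed with stage was tested as an interaction, each stage against the C1q-high cells. No member passed. The lowest value was that of Stab1 in C1q-low cells, where the difference was larger than in C1q-high cells by -1.75 (SE 0.50, edgeR adjusted p = 0.0794), and by -0.72 with halved cuts and -0.87 by Ward clusters (edgeR adjusted p = 0.764 and 0.611). Among 8816 genes, 0.783% passed for Ly6C+ MHC II-low, 0.159% for Ly6C+ MHC II-high, 0.556% for C1q-low and 0.715% for C1q-intermediate cells.

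The ratio of 2 members within the same cells does not depend on how libraries are scaled. For every 100 Axl UMIs in C1q-high cells there were 45.4 and 54.6 Stab1 UMIs on chow against 30.0 and 21.02 on HFD. In C1q-intermediate cells there were 39.1 and 38.3 on chow against 18.4 and 13.1 on HFD. Mertk UMIs per 100 Axl UMIs in C1q-high cells were 14.3 and 16.5 on chow against 9.47 and 9.49 on HFD, and in C1q-intermediate cells the diets overlapped. The Stab1 and Mertk ratios to Axl in C1q-high cells separated the diets, without a test. Axl itself was higher there in both HFD mice (270 and 245 CPM) than in both chow mice (234 and 225 CPM). For every 100 Stab1 UMIs in C1q-high cells there were 31.5 and 30.2 Mertk UMIs on chow against 31.5 and 45.2 on HFD, with HFD replicate 3 apart from the other mice. In C1q-intermediate cells these were 15.3 and 37.9 on chow against 36.7 and 36.8 on HFD, with chow replicate 9 apart.

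Cells of the same stage differed between diets in other markers too. In C1q-high cells 12 resident macrophage markers summed to 92980 and 89410 CPM on chow against 61770 and 51130 CPM on HFD, and the 7 monocyte markers to 241 and 369 against 1321 and 1461 CPM. Most of the first sum was Apoe (66100 and 61710 against 36170 and 27190 CPM). Apoe was not alone: 8 of the 12 markers were lower in both HFD mice than in both chow mice, 3 overlapped and C1qb was higher in both. C1qa, C1qb and C1qc among the 12 also set the stage cuts. The share of all genes that separate the diets in this way was not counted, here or in the other stages. Of 10 tested, 5 fell by the edgeR test at the FDR of 1% (Apoe, Adgre1, Cd4, Cd81 and Mrc1) and none rose, where 0.659% of all genes fell. In C1q-intermediate cells the resident markers summed to 57870 and 58480 against 19890 and 18870 CPM, with Apoe at 42500 and 42460 against 9651 and 8314 CPM, and the monocyte markers to 732 and 962 against 3658 and 4263 CPM. All 12 resident markers, the C1q genes included, were lower there in both HFD mice. Of 10 tested, 8 fell by the edgeR test at the FDR of 1%, where 5.75% of all genes fell. They were Adgre1, Apoe, Cd4, Cd81, Cx3cr1 and Mrc1, with C1qa and C1qc, which set the cuts. In C1q-low cells 9 of the 12 were lower in both HFD mice and 3 overlapped. Of 9 tested, 6 fell by the edgeR test, where 1.15% of all genes fell. They were Adgre1, Apoe, Cd81, Cx3cr1 and Mrc1, with C1qa, which sets the cuts. In C1q-low cells the resident markers summed to 21560 and 20040 against 5777 and 5057 CPM, and the monocyte markers to 2396 and 4185 against 6648 and 7288 CPM. Plasma and B cell markers (3 measured, mostly Igha and Jchain) summed to 12490 and 18370 CPM in the C1q-low cells of chow mice, against 143 and 96.5 CPM on HFD, and to 8043 and 5285 against 129 and 96.8 CPM in C1q-intermediate cells. In Ly6C+ MHC II-low cells, from which the rises of all 3 members were measured, they summed to 47890 and 84810 CPM on chow against 118 and 80.2 CPM on HFD. Stab1 is also made by endothelium, which a CD45+ CD11b+ gate should leave out. In C1q-high cells the 2 endothelial markers moved with Stab1, at a sum of 23.5 and 44.9 CPM on chow against 17.8 and 14.1 CPM on HFD, nearly all of it Pecam1 (23.2 and 43.8 against 16.7 and 10.8 CPM), which myeloid cells also make. In C1q-intermediate cells the sums were 21.3 and 42.8 against 9.33 and 19.0 CPM, and in C1q-low cells they ran the other way, at 0 and 7.32 against 20.4 and 23.2 CPM, from 0 and 1 against 15 and 26 UMIs. In C1q-high cells Kdr was near 0, with 1 and 7 UMIs on chow against 1 and 4 on HFD (0.37 and 1.11 against 1.11 and 3.33 CPM). The 4 measured fibroblast markers also separated the diets in C1q-high cells, at 15.1 and 23.0 CPM on chow against 4.45 and 5.82 CPM on HFD, but not in C1q-intermediate cells (7.60 and 20.5 against 17.3 and 9.52 CPM). The part of these markers in the stage and diet differences of the members was not tested.

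C1q-high cells are not uniform, and Stab1 was highest in those with a UMI of Cd163 or Lyve1, markers of macrophages deep in the gut wall and around vessels. In the 30 and 150 such cells of the chow mice, Stab1 was at 294 and 349 CPM, and it was at 116 and 114 CPM in cells with Cd4 and at 86.5 and 93.7 CPM in cells with none of the 3 genes. Mertk was also highest in the cells with Cd163 or Lyve1, with 61.8 and 68.4 CPM from 8 and 40 UMIs. The other groups lay close together, at 34.0 and 34.4 CPM with Cd4 and at 31.0 and 33.7 CPM with none. Axl was highest there in chow replicate 9 only, with 263 and 151 CPM in cells with Cd163 or Lyve1 and 240 and 242 CPM in cells with none.

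The HFD mice had only 5 and 2 C1q-high cells with Cd163 or Lyve1, too few for a level. In their 21 and 23 cells with Cd4, Stab1 was at 70.6 and 73.1 CPM and Mertk at 50.5 and 32.5 CPM, resting on 4 to 9 UMIs. In C1q-high cells with none of the 3 genes, Stab1 was at 82.6 and 48.3 CPM on HFD against 86.5 and 93.7 CPM on chow, so HFD replicate 1 came just under chow replicate 9 and had more Stab1 there than in its cells with Cd4. Mertk there was at 21.6 and 22.3 CPM on HFD against 31.0 and 33.7 CPM on chow.

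**Figure D5:**
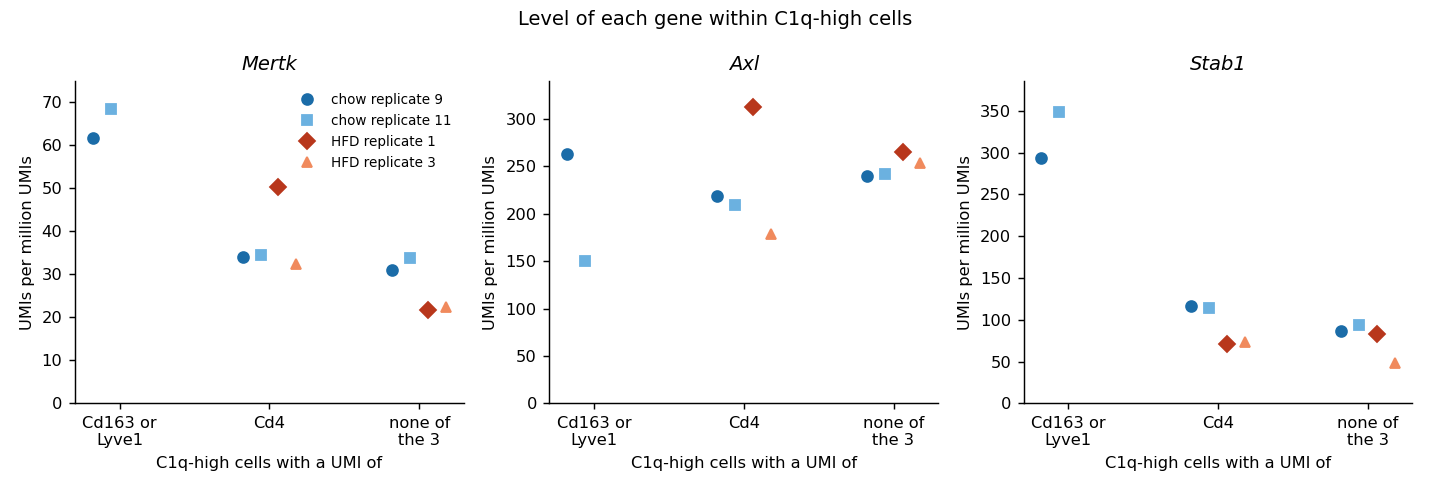
CPM of each gene (vertical axes, linear) in C1q-high cells with a UMI of Cd163 or Lyve1, with a UMI of Cd4 and neither of those, and with none of the 3 (horizontal axis), 1 point per mouse where it had at least 20 cells. Stab1 stands at 294 and 349 CPM in the Cd163 or Lyve1 cells of the chow mice, and the HFD mice have no point there.

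The genes whose levels ran most like those of each member were taken by Pearson's r of log2 CPM over 19 sums of mouse and stage, among 4954 genes, as a description in which neighbouring stages of a mouse share their library. For Mertk these were Zmynd15 (r = 0.93), AC160336.1 (0.92), Rab7b (0.92), Npl (0.91) and Blvrb (0.90), and Axl came in place 10 (0.87). For Axl they were H2-Eb1 (0.97), Cd74 (0.97), H2-Aa (0.97), Pdlim4 (0.96) and H2-Ab1 (0.96), of which the 3 H2 genes also set the stage cuts. For Stab1 they were Smc2 (0.90), Slco2b1 (0.90), Pdgfb (0.89), Rcbtb2 (0.89) and Asb2 (0.89), while Mertk and Axl were further from it (0.77 and 0.70).

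Other genes were taken from lists of TAM partners, phosphatidylserine receptors, bridging molecules and their receptors, engulfment, nuclear receptors and lipid efflux, do-not-eat-me signals, and the interferon receptor with suppressors of cytokine signalling. Of 50 genes on these lists 42 were read, and the 4 of the last list (Ifnar1, Ifnar2, Socs1 and Socs3) are not clearance genes. From Ly6C+ MHC II-low to C1q-high cells, 10 of 41 tested were higher (9.58% of all genes were) and 7 lower (7.01% of all genes), with a median log2 difference of 0.05 against 0.15 over all genes. Ifnar1 of the last list was among the higher ones (0.69, edgeR adjusted p = 0.00417). Cd36, a scavenger receptor that works with integrins in the uptake of dying cells, rose by 3.98 (SE 0.46, edgeR adjusted p = 1.73e-08), and the integrin subunits Itgb5 and Itgav rose by 2.47 and 1.75 (edgeR adjusted p = 2.2e-10 and 3e-04). The cholesterol exporter Abca1 rose by 3.11 (edgeR adjusted p = 1.82e-10) and the oxysterol receptor Nr1h3 by 2.16 (edgeR adjusted p = 5.21e-05). Timd4, a phosphatidylserine receptor of long-lived macrophages, had no UMI in Ly6C+ MHC II-low cells of any mouse and 17.7, 18.7, 8.90 and 4.16 CPM in C1q-high cells. The bridging protein gene Pros1 differed by -0.05 (SE 0.39, edgeR adjusted p = 0.946), and Thbs1, which bridges dying cells to Cd36, fell by 1.62 (edgeR adjusted p = 4.44e-07). Of the other phosphatidylserine receptors Havcr2 rose by 1.25, whereas Cd300lb and Cd300a fell by 1.41 and 0.53 (edgeR adjusted p = 3.63e-05, 0.000371 and 0.00618). The do-not-eat-me genes Pirb and Cd47 fell by 1.29 and 0.83 (edgeR adjusted p = 4.19e-08 and 1.8e-06), and of the engulfment genes Elmo2 and Rac2 fell by 1.03 and 0.72 while Vav1 rose by 0.70 (edgeR adjusted p = 0.00532, 2.86e-05 and 0.00723). Calr, whose product marks dying cells, rose by 0.79 (edgeR adjusted p = 0.000108).

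Over all cells, 2 of 31 tested genes of these lists were higher on HFD and 6 lower, against 7.67% and 8.58% of all genes. The median was -0.18 against -0.01 over all genes, and these calls are given as counts only. In C1q-intermediate cells, 3 of 30 tested genes of these lists were higher on HFD and 3 lower, against 5.44% and 5.75% of all genes (median -0.27 against -0.02 over all genes). Higher were Nr1h3 (2.33, edgeR adjusted p = 0.000137), the cholesterol exporter Abcg1 (0.98, edgeR adjusted p = 0.00751) and the inhibitory receptor Pirb (0.84, edgeR adjusted p = 0.00733). Lower were Cd36 (-2.30, edgeR adjusted p = 0.000541), Cd300lb, a receptor for phosphatidylserine (-1.86, edgeR adjusted p = 0.00671), and, from the list that is not of clearance genes, Socs3, a suppressor of cytokine signalling (-1.21, edgeR adjusted p = 0.000133). Cd36 was at 164 and 107 CPM on chow against 17.3 and 39.7 CPM on HFD. In C1q-high, Ly6C+ MHC II-low and C1q-low cells 0 of 32, 27 and 29 tested genes passed the edgeR test at the FDR of 1%, where 1.67%, 0.692% and 2.04% of all genes did, shares at which such lists would hold few calls or none, and 11, 7 and 5 had an unadjusted p under 0.05, as 23.2%, 12.5% and 18.9% of all genes did.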

How the data were processed

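Per the labels and the study's methods, droplet libraries (3-prime chemistry) were pseudo-aligned by the authors (bustools 0.39.2 after kallisto 0.46.0; mm10 in their notes), cells and genes were filtered, cells not annotated as monocytes or macrophages were removed, and raw UMI counts were deposited without normalization. The mouse of each cell came from its name. Of the 11820 gene identifiers, 11819 matched GENCODE M21. Members, lists and cuts were chosen with earlier results of these data known.

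Stages used cuts per 10000 UMIs of 4 for Ly6c2, 100 for MHC II, and 50 and 150 for C1q. Ly6C+ stages and C1q-low cells had C1q under 50. Sums of at least 20 cells per mouse and stage were tested with edgeR (version 4.0.16; TMM, quasi-likelihood, Benjamini-Hochberg, FDR 1%). Diet fits kept genes with CPM above 1 in 2 sums and a UMI in 5% of cells. Stage and interaction fits kept genes with a UMI in 1% of cells and had a term for each mouse. Ly6C+ MHC II-high cells were not tested for diet alone because chow replicate 9 had 2. Intervals of shares are exact binomial (95%), and limits for 0 use 3 counts; both cover counting error only. Doublets, 38 cells (0.701%) by Scrublet (scanpy version 1.11.5), stayed in. Alternatives were the likelihood-ratio test, DESeq2 (version 1.42.0), RLE size factors, no filter, each mouse left out, cuts halved or doubled, 6 Ward clusters of scran-normalized (version 1.30.0) cells built without the members, doublets removed and thinning. Leaving mice out of the weighted levels was added after the data were seen. Named genes were the members, list genes past the threshold or needed for a role, and the 5 most alike genes. Scripts were tested on simulated data. Free RNA from empty droplets was not analysed here. 1 list gene is not reported here.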

Additional observations from a re-analysis of the deposited data

How the results depend on the processing

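Of 413 values under alternatives that had an adjusted p, 373 kept their direction and side of the threshold. DESeq2 gave no adjusted p for 13 others. The rise of Axl, Mertk and Stab1 from Ly6C+ MHC II-low to C1q-high cells kept its call under each alternative run, but its log2 size ran from 3.14 to 4.24 for Axl (3.74 as reported; lowest with doubled cuts), from 4.22 to 5.77 for Mertk (4.75; 5.39 without chow replicate 9, 5.34 with halved cuts and 5.77 with Ward clusters) and from 2.71 to 3.86 for Stab1 (2.87; 3.58 without HFD replicate 1 and 3.86 with doubled cuts). Leaving out 1 mouse gave these log2 ranges: Axl -0.79 to -0.72, Mertk -2.0 to -1.79 and Stab1 -2.35 to -1.71 over all cells; Stab1 -3.40 to -2.36 in C1q-low, -1.75 to -1.30 in C1q-intermediate and -1.26 to -0.56 in C1q-high cells; and Axl -0.0069 to 0.18 in C1q-high cells. Such a fit assumes that the lone mouse varies like the others. Without chow replicate 11, Mertk over all cells and in C1q-intermediate cells, and Stab1 in C1q-low cells, missed the filter on detection in 5% of cells and have no value. The log2 step of Stab1 into Ly6C+ MHC II-high cells ranged from -2.29 to 1.62. Interactions, none past the threshold, ranged from -3.81 to 3.23 (Mertk, Ly6C+ MHC II-low), -1.27 to 0.58 (Mertk, C1q-low), -0.84 to 0.35 (Mertk, C1q-intermediate) and -6.03 to 1.41 (Stab1, Ly6C+ MHC II-high).

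With halved cuts, Stab1 differed by -1.14 in C1q-high cells (edgeR adjusted p = 0.00669) and -2.54 in C1q-intermediate cells (edgeR adjusted p = 0.0113), Axl by -0.039 in C1q-high cells, the interactions were 0.16 for Axl and 6.20 for Mertk in Ly6C+ MHC II-high, 3.45 for Mertk in MHC II-low and 1.08 in C1q-low cells, and the Mertk-positive share differed by -3.19 percentage points against -2.48. With doubled cuts, Axl differed by 0.0079 in C1q-intermediate cells and by -0.22 between C1q-high and C1q-intermediate cells; C1q-high cells were then too few on HFD for a diet fit. With Ward clusters, Stab1 differed by -1.34 and -0.57 in C1q-low and C1q-intermediate cells, Mertk by 0.35 in C1q-intermediate cells, Axl by -0.19 between the last 2 stages, and the interactions were 0.054 (Axl, MHC II-low), 0.84 and 0.66 (Mertk, C1q-low and C1q-intermediate). Differences in positive share were then -5.87 (Axl, against 2.31), -0.77 (Mertk) and -3.10 (Stab1, against -7.44) percentage points. Thinning gave -1.17 for Mertk. Without HFD replicate 3 the Axl share difference was 0.248 points, and 4.37 without HFD replicate 1. The cause of these shifts was not tested. The count of all genes past the threshold for diet in C1q-high cells was 86, and 0 without HFD replicate 3 (edgeR, 729 at an unadjusted p under 0.05), 4 without HFD replicate 1, 241 and 343 without chow replicates 11 and 9, 7 with Ward clusters, 205 by DESeq2, 307 without the filter, 345 by the likelihood-ratio test and 449 with halved cuts. Over the alternatives the counts ran from 119 to 1307 over all cells (805 as reported), 31 to 120 in Ly6C+ MHC II-low (31), 72 to 300 in C1q-low (98) and 81 to 859 in C1q-intermediate cells (541), and from 464 to 1876 between Ly6C+ MHC II-low and C1q-high cells (1463). The 4 single stage steps ran from 60 to 206 (127), 4 to 43 (12), 20 to 320 (110) and 34 to 620 (85), and the interactions from 26 to 108 (69), 11 to 53 (14), 20 to 70 (49) and 19 to 84 (63), in order of stage. Depth limits Mertk most, with 2 UMIs in Ly6C+ MHC II-low and 376 in C1q-high cells, against 24 and 1198 for Stab1 and 42 and 2592 for Axl. No paired analysis was possible because the diets share no replicate numbers.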
